A study of Mus musculus with 6 samples.

Results

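The genes described here are 9 imprinted genes linked to stem cell maintenance, H19, Meg3, Rian, Mirg, Grb10, Ndn, Peg3, Plagl1 and Mest. They were taken by symbol from a table of 55573 genes, by a rule that uses no measured value but was written with earlier results of these data known, and each matched 1 row. The series holds 6 libraries of LSK cells, the lineage-negative, Sca-1-positive and c-Kit-positive fraction of bone marrow that holds the blood stem cells and multipotent progenitors, sequenced in bulk. The 3 wild-type libraries (Etv6+/+) and the 3 mutant libraries came from C57BL/6J mice aged 3 months. The mutants carry 1 copy of the R355X allele of Etv6, an ETS-family transcriptional repressor, by the series text, and the genotype field of the labels writes them as Etv6+/-. The labels record no transgene, Cre or drug for any library. They do not say whether replicates were separate animals or pools, so a p-value here reflects only how far these libraries differ among themselves, and that spread may be technical. By its title the study asks about ETV6 in inflammatory gene expression and in stem and progenitor cells under stress, and the comparison made here is mutant against wild type.

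Imprinted genes are transcribed mainly from the copy inherited from 1 parent, under the control of DNA methylation laid down in the germ line. Many act on growth, and in blood stem cells several are known for keeping the cells quiescent, chiefly by restraining insulin-like growth factor and mTOR signalling. H19, Meg3, Rian and Mirg are long noncoding RNAs expressed from the maternal copy, and all of them host small RNAs. Grb10 encodes an adaptor that inhibits the insulin and Igf1 receptors and is expressed from the maternal copy in most tissues. Ndn, Peg3, Plagl1 and Mest are protein-coding genes expressed from the paternal copy.

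Libraries held between 45.2 M and 92.2 M expected counts, most in mutant replicate 1. Levels are given as CPM, counts per M counts after TMM scaling of library size. Of the 9 genes, 6 (Meg3, Rian, Grb10, Ndn, Peg3 and Mest) passed the filter on low counts and were tested among 20646 genes. H19, Mirg and Plagl1 did not, and are given as counts. Etv6 itself measured 454, 419 and 400 CPM in wild-type replicates 1 to 3 and 305, 341 and 386 CPM in mutant replicates 1 to 3, a log2 difference of -0.30 (SE 0.0862, edgeR adjusted p = 0.245), with the genotypes not overlapping. It passed the threshold in DESeq2 (adjusted p = 0.0446) and in edgeR without the filter on low counts (adjusted p = 0.0111). The sorting markers were present in every library, with Kit at 351 to 451 CPM and Ly6a, which encodes Sca-1, at 71.7 to 93.5 CPM.

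Rian is the host gene that the results turn on most, so the mature miRNAs that RefSeq (GRCm38.p6) places inside it on the same strand are shown first, 5′ to 3′ with the seed, bases 2 to 8, in capitals. All come from chromosome 12, between 109611521 and 109618326. Their 6 seeds differ from each other.
miR-341-5p: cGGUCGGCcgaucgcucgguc
miR-341-3p: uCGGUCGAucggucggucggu
miR-1188-5p: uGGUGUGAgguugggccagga
miR-1188-3p: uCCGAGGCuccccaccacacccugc
miR-370-5p: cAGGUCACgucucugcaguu
miR-370-3p: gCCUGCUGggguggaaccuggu
Over all 9 genes, RefSeq places 39 mature miRNAs from 21 hairpins on the host's strand, 26 of them in Mirg, 6 in Rian, 3 in Meg3, 2 in H19 and 2 in Mest. They hold 38 distinct seeds. The only shared seed is GGUUGCC, found in the following pair from Mirg.
miR-453: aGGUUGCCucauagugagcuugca
miR-496a-5p: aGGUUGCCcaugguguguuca
H19 hosts miR-675, whose arms are shown because this miRNA is known as its product that acts on the Igf1 receptor.
miR-675-5p: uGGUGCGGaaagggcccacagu
miR-675-3p: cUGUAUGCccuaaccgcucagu
These sequences place the hosts in view and were not themselves measured. Of the genes that the annotation places inside the 9 members, 44 are small RNA genes (23 for miRNAs, 13 for snoRNAs), and every one of them was listed at 0 in all 6 libraries. The counts below therefore describe the host transcripts.

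Among the maternally expressed long noncoding RNAs, Rian was lower in every mutant library than in any wild-type library, at 43.6% of the wild-type level by the fit, while Meg3, its upstream neighbour, differed by less than its replicate spread. H19 and Mirg were at or near the limit of detection. Rian did not pass the threshold after adjustment over all genes in the edgeR test, and did in DESeq2.

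Rian lies on chromosome 12 from 109603940 to 109661716 on the plus strand (mm10, ENSMUSG00000097451.11) and is a host of C/D-box snoRNAs and miRNAs. Its level was 3.26, 3.97 and 1.83 CPM in wild-type replicates 1 to 3 and 1.43, 1.29 and 1.23 CPM in mutant replicates 1 to 3. The mutant libraries lay close together and below all wild-type libraries, of which replicate 3 was much the lowest. The means were 3.02 ± 1.09 and 1.31 ± 0.105 CPM (SD, n = 3 each), from 200, 194 and 89 counts against 125, 67 and 55. The log2 difference was -1.20 (SE 0.285, 95% interval -1.83 to -0.57), which puts the mutant at 43.6% of wild type (28.2% to 67.5%). The edgeR adjusted p was 0.168, and the exact two-sided permutation p on CPM was 0.1, the least that 3 against 3 libraries can give. The adjusted p was 0.00924 in DESeq2 and 0.00651 in edgeR without the filter on low counts. Leaving out wild-type replicate 3 gave a log2 difference of -1.45 with adjusted p = 0.0465, leaving out wild-type replicate 2 gave -0.95 with adjusted p = 0.555, and over all alternatives adjusted p ran from 0.00651 to 0.555.

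Wild-type replicate 3 also differed in its cell markers. Its summed level of 12 long-term stem cell markers was the lowest, 611 CPM against 799 and 831 CPM in the other wild-type libraries and 625 to 724 CPM in the mutants. Hlf, a stem cell transcription factor, made up most of this sum, at 342 CPM there against 507 and 467 CPM in wild-type replicates 1 and 2. Not every marker followed it, and Vwf was highest in wild-type replicate 3, at 13.4 CPM. Mpo, the neutrophil granule enzyme that marks myeloid progenitors, was highest there, at 4688 CPM against 2015 to 2673 CPM in the other 5 libraries. Without that library the Rian difference was larger, as given above. In bulk samples, fewer cells of a type and less RNA per cell cannot be told apart.

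Meg3 (chromosome 12, 109541001 to 109571726, plus strand, ENSMUSG00000021268.17), the first transcript of the maternally expressed group in the Dlk1-Dio3 cluster, is known for a part in holding down mTOR signalling in long-term stem cells. It measured 2.81, 2.81 and 1.97 CPM in wild type against 1.78, 2.78 and 2.07 CPM in the mutant. The ranges nearly coincide. The log2 difference was -0.20 (SE 0.242, 95% interval -0.73 to 0.34, edgeR adjusted p = 0.826).

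**Figure D1:**
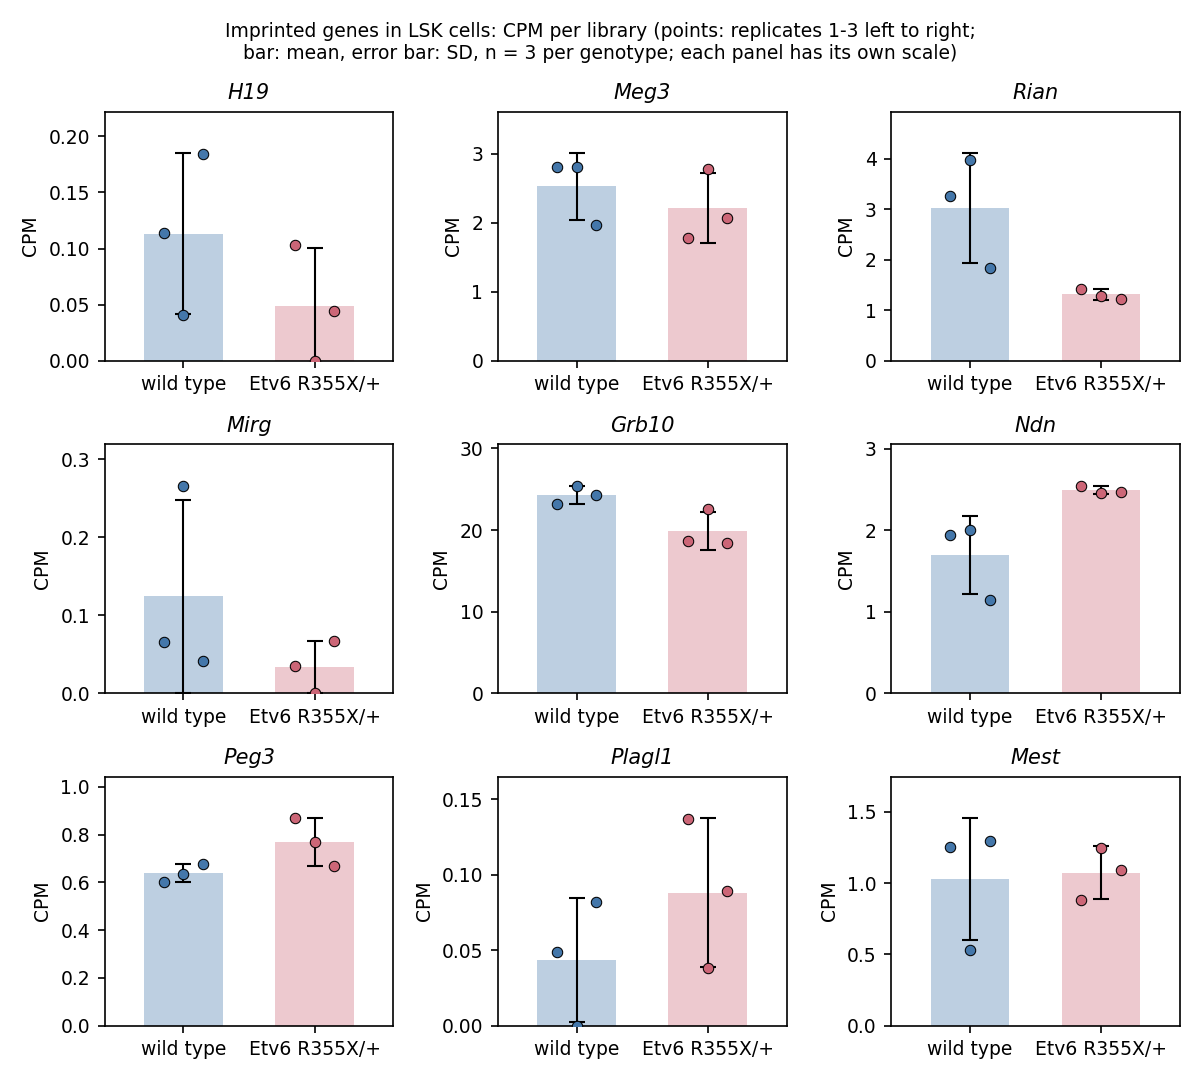
Level of each of the 9 genes in CPM, 1 panel per gene, with points for libraries (replicates 1 to 3 from left to right), bars for the mean and error bars for the SD of 3 libraries per genotype, drawn no lower than 0. Rian and Grb10 were lower and Ndn higher in all mutant libraries than in any wild-type library, and H19, Mirg and Plagl1 stayed below 0.3 CPM.

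Because Meg3 and Rian are read from the same libraries, the ratio of their counts needs no scaling for depth. This ratio was chosen after the values were seen. It was 1.16, 1.42 and 0.928 in wild type and 0.801, 0.462 and 0.591 in the mutant, so Rian exceeded Meg3 in 2 of 3 wild-type libraries and in 0 of 3 mutant libraries. The log2 ratio differed by -0.93, again at the permutation limit (exact two-sided p = 0.1), and by -1.14 to -0.74 when each library was left out in turn.

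Mirg (chromosome 12, 109729764 to 109749460, ENSMUSG00000097391.8), the host of the large miRNA group at the far end of the cluster, had 4, 13 and 2 counts in wild type and 3, 0 and 3 in the mutant. These overlap, and the exact two-sided permutation p on CPM was 0.3. A count of 0 in mutant replicate 2 allows a level of up to 0.0575 CPM (3 counts, counting error only), and the group means rest on few counts. H19 (chromosome 7, 142575529 to 142578143, minus strand, ENSMUSG00000000031.16), which is known to restrain Igf2 and Igf1 receptor signalling in long-term stem cells, had 7, 2 and 9 counts in wild type and 9, 0 and 2 in the mutant. The genotypes overlap here too (exact two-sided permutation p = 0.3). In the fit without a filter, adjusted p was 0.742 for Mirg and 0.816 for H19.

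Dlk1, Rtl1 and Dio3 are the paternally expressed protein-coding genes of the same cluster. Dlk1 (chromosome 12, 109452823 to 109463336), a transmembrane protein of the Delta-Notch family, had 23, 29 and 21 counts in wild type and 2, 13 and 8 in the mutant. Every mutant library was below every wild-type library at these low counts, and the log2 difference was -1.71 (SE 0.689, 95% interval -3.24 to -0.19, edgeR adjusted p = 0.425). It was -1.11 without mutant replicate 1, which had the fewest Dlk1 counts, and ran from -2.37 to -1.11 when each library was left out. Rtl1, a retrotransposon-derived gene overlapped by antisense transcripts from the maternal copy, had 3, 6 and 14 counts in wild type and 2, 0 and 2 in the mutant and was not tested. Without strand information, its reads and those of its antisense partner cannot be told apart. Dio3, which encodes a thyroid hormone deiodinase, was listed at 0 in every library. Between the start of Dlk1 and the end of Dio3 the table lists 117 genes, of which 105 were at 0 throughout, 66 of the 67 miRNA genes and all 23 snoRNA genes among them.

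**Figure D2:**
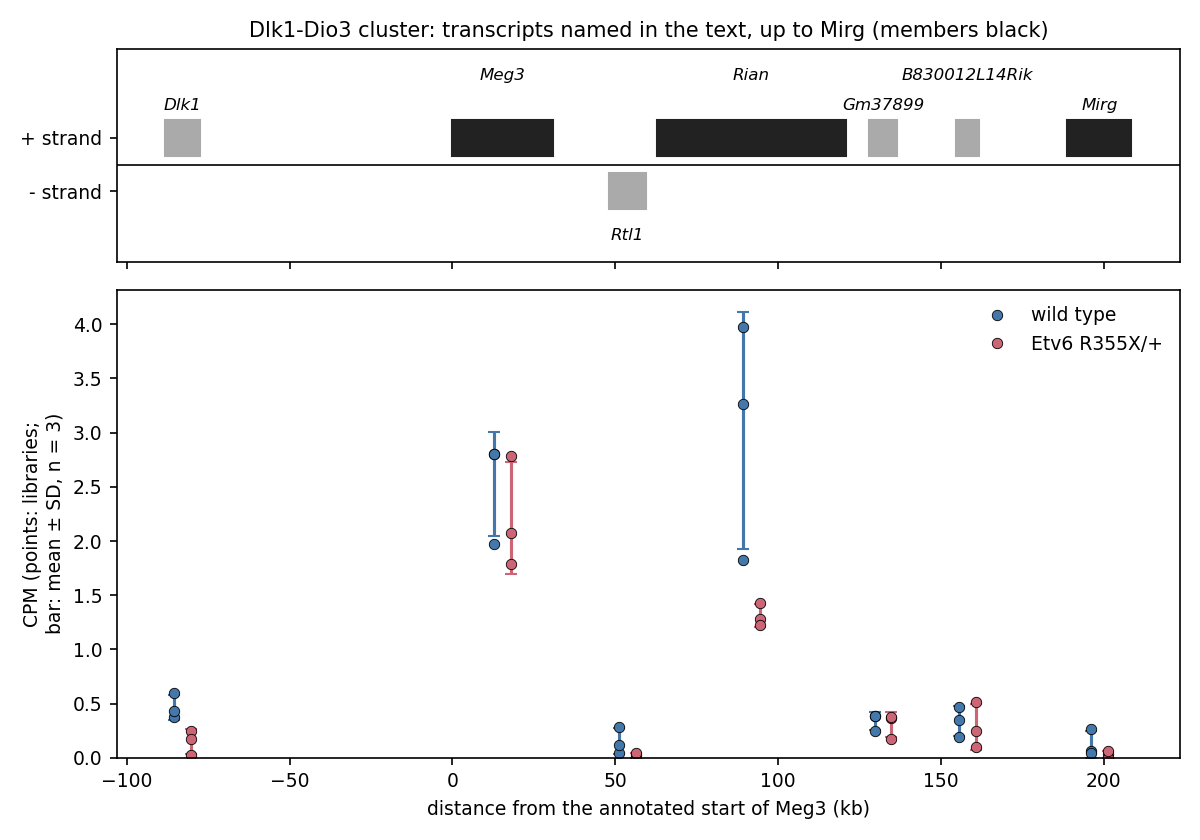
Map of the Dlk1-Dio3 cluster from Dlk1 to Mirg, members in black and other transcripts named in the text in grey, above their levels, with the horizontal axis in kb from the annotated start of Meg3, points for libraries in CPM and vertical lines for the mean ± SD of 3 libraries per genotype. In absolute CPM, Rian is the gene of the cluster whose wild-type mean, 3.02 CPM, is farthest above its mutant mean, 1.31 CPM, while Meg3 overlaps between genotypes. In proportion the scarcer Dlk1 was lower still, at 30.5% of wild type by the fit against 43.6% for Rian.

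Igf2, the growth factor that shares its control region with H19, was uneven within each genotype, at 0.848, 0.676 and 0.144 CPM in wild type against 0.0915, 0.0767 and 0.602 CPM in the mutant. Wild-type replicate 3 and mutant replicate 3 stand apart from their groups, and the log2 difference of -1.20 had an SE of 0.82 (edgeR adjusted p = 0.655).

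Grb10 was the most abundant of the 9 genes and was lower in the mutant by about the size of the Etv6 difference. It lies on chromosome 11 from 11930508 to 12038683 on the minus strand (ENSMUSG00000020176.17). Its level was 23.2, 25.5 and 24.3 CPM in wild type against 18.6, 22.5 and 18.4 CPM in the mutant, with mutant replicate 2 closest to wild type and no overlap between the genotypes. The means were 24.3 ± 1.14 and 19.9 ± 2.33 CPM (SD, n = 3 each). The log2 difference was -0.29 (SE 0.104, 95% interval -0.52 to -0.06, edgeR adjusted p = 0.37), so it did not pass after adjustment over all genes. Its neighbours in the Grb10 cluster were scarce. Ddc, an amino acid decarboxylase, had 1 to 29 counts per library and a log2 difference of 1.19 (SE 0.844, edgeR adjusted p = 0.663), and Cobl, an actin nucleator, had 1, 3 and 2 counts in wild type and 0 in each mutant library.

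Of the paternally expressed genes, Ndn was higher in every mutant library than in any wild-type library, and Peg3, Plagl1 and Mest overlapped between genotypes. The edgeR test called 0 of the 3 that were tested.

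Ndn, which encodes necdin, a MAGE-family protein known for restraining stem cell proliferation, lies on chromosome 7 from 62346569 to 62350262 (plus strand, ENSMUSG00000033585.5). It measured 1.94, 2.01 and 1.15 CPM in wild type against 2.55, 2.46 and 2.47 CPM in the mutant. The mutant libraries were nearly equal, and wild-type replicate 3 was again the lowest of its group. The log2 difference was 0.55 (SE 0.246, 95% interval 0.01 to 1.09, edgeR adjusted p = 0.466). Without wild-type replicate 3 it was 0.34. In the same chromosome 7 cluster, Magel2 had 1 count in all, Mkrn3 had a log2 difference of 0.28 (SE 0.306, edgeR adjusted p = 0.797) and Peg12 of -0.26 (SE 0.275, adjusted p = 0.787). Snrpn stayed at 0.178 to 0.246 CPM and Snurf at 0 CPM. Ube3a, a ubiquitin ligase that neurons express from the maternal copy, measured 113 ± 7.46 and 106 ± 4.2 CPM (SD, n = 3 each, log2 difference -0.10, edgeR adjusted p = 0.657).

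Peg3, a zinc finger gene of chromosome 7 (6703892 to 6730431, minus strand, ENSMUSG00000002265.16), measured 0.603, 0.635 and 0.677 CPM in wild type against 0.869, 0.767 and 0.668 CPM in the mutant. Mutant replicates 1 and 2 were above all wild-type libraries and mutant replicate 3 was not. The log2 difference was 0.27 (SE 0.317, 95% interval -0.43 to 0.97, edgeR adjusted p = 0.81). Its cluster neighbours Zim1 and Zfp264 were listed at 0 in every library, and Usp29 had 2 counts in each of wild-type replicate 1 and mutant replicate 3 and 0 in the rest.

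Plagl1, a zinc finger transcription factor known as a regulator of other imprinted genes (chromosome 10, 13060504 to 13131694, plus strand, ENSMUSG00000019817.18), had 3, 0 and 4 counts in wild type and 12, 2 and 4 in the mutant. The genotypes overlap (exact two-sided permutation p = 0.4, adjusted p = 0.816 in edgeR without the filter). A count of 0 in wild-type replicate 2 allows up to 0.0614 CPM.

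Mest (chromosome 6, 30723547 to 30748465, plus strand, ENSMUSG00000051855.15), an enzyme of the alpha/beta hydrolase fold, measured 1.26, 0.532 and 1.29 CPM in wild type against 0.881, 1.25 and 1.09 CPM in the mutant. Wild-type replicate 2 was the lowest and the other libraries lay together. The log2 difference was 0.05 (SE 0.361, 95% interval -0.75 to 0.85, edgeR adjusted p = 0.977). Mest overlaps Copg2, a coat protein gene on the opposite strand, and its expected counts are not whole, so its value depends on how reads were shared out between them. Copg2 was far higher, at 33.3 to 35.1 CPM in wild type against 33.7 to 40.2 CPM in the mutant. Klf14 of the same cluster was listed at 0.

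**Figure D3:**
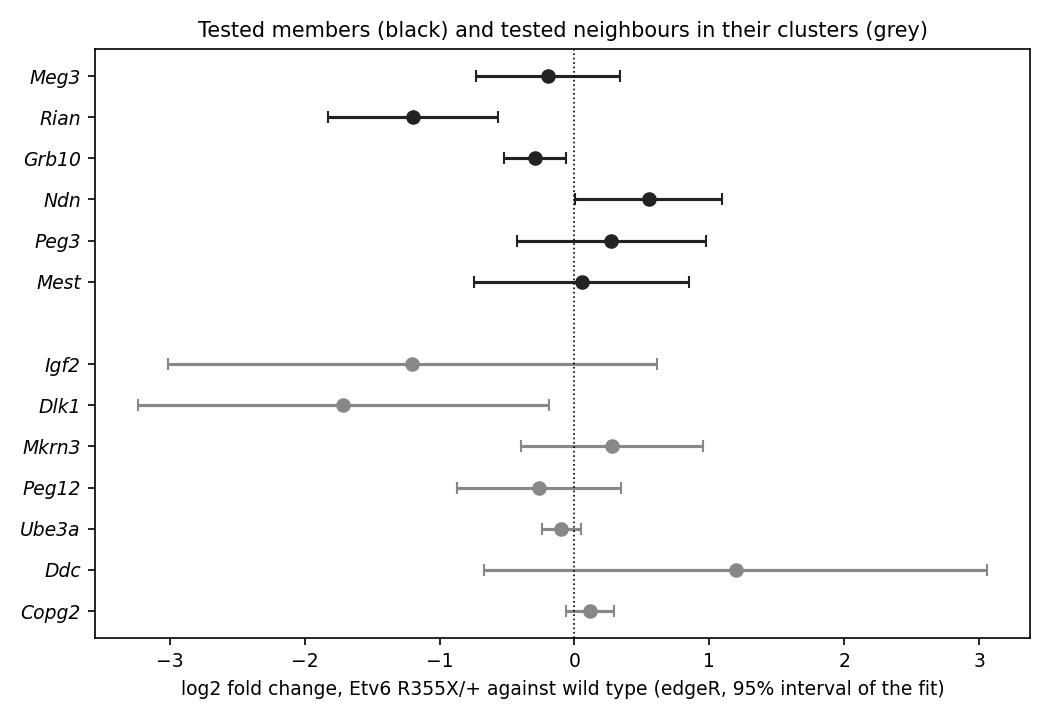
Log2 fold change of the mutant against wild type for the 6 tested members in black and tested neighbours in their clusters in grey, with points for the edgeR estimate and lines for the 95% interval. The intervals of Rian (-1.83 to -0.57) and Grb10 (-0.52 to -0.06) lie below 0, that of Ndn (0.01 to 1.09) reaches almost to 0, and those of Meg3, Peg3 and Mest span it.

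Read as a group, the 6 tested genes did not move in 1 direction. Of these, 3 were above 0 and 3 below, with a median log2 difference of -0.07, against 0.002 over all 20646 tested genes. The edgeR test called 0 of the 6 at an adjusted p under 0.05, where it called 0.266% of all tested genes (0.189% higher and 0.0775% lower), and limma-voom called 0. DESeq2 called 1, Rian, where it called 1.89% of the genes it tested. At an unadjusted p under 0.05 there were 3 of 6 (Rian and Grb10 lower, Ndn higher), where 10.6% of all tested genes passed (4.8% lower and 5.83% higher). The same 3 genes were those whose genotypes did not overlap, as for 16.3% of all tested genes (7.84% lower and 8.45% higher). With 6 genes, these shares are coarse.

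Compared per length, the members spanned a wide range of levels. In CPM per kb of exon, the wild-type means were 2.67 ± 0.125 for Grb10, 0.46 ± 0.129 for Ndn, 0.26 ± 0.109 for Mest, 0.166 ± 0.0599 for Rian, 0.14 ± 0.0266 for Meg3, 0.0479 ± 0.00278 for Peg3, 0.046 ± 0.0292 for H19, 0.017 ± 0.0169 for Mirg and 0.00559 ± 0.00528 for Plagl1 (SD, n = 3 each). Only the steps from Grb10 to Ndn and from Meg3 to Peg3 separated neighbours whose libraries did not overlap. In the mutant, Rian stood at 0.072 ± 0.00576 CPM per kb, below Meg3 at 0.122 ± 0.0284, so their order differed between the genotypes. By the mean over the 6 libraries, Grb10 was above 46.6% of the 20602 tested genes with a length, Ndn above 20.8%, Mest above 11.1%, Meg3 above 5.2%, Rian above 4.6% and Peg3 above 1.22%. Apart from Grb10, the tested members thus lay in the lower part of the tested genes, where counts limit the precision.

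The other imprinted genes were taken from a list of 55, of which 40 were tested. Of these, 16 were above 0 and 24 below, with a median log2 difference of -0.04. The edgeR test called 0 of them, DESeq2 0 and limma-voom 0, and 8 of the 40 had an unadjusted p under 0.05, 5 higher and 3 lower, where 10.6% of all tested genes did.

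Cd81, a tetraspanin of the Kcnq1 cluster, was the one with the smallest p. It measured 126, 129 and 126 CPM in wild type against 144, 145 and 146 CPM in the mutant, a small and even difference of 0.19 on the log2 scale (SE 0.0533, edgeR adjusted p = 0.231). H13, a signal peptide peptidase gene, measured 76.7, 81.5 and 81.7 CPM in wild type against 94.5, 87.5 and 93.6 CPM in the mutant (log2 difference 0.20, adjusted p = 0.278). Mcts2, which lies inside an intron of H13 and is expressed from the paternal copy, was at 10 ± 1.25 and 13 ± 0.739 CPM (SD, n = 3 each, log2 difference 0.37, adjusted p = 0.346). Both genes are on the plus strand, so reads of unspliced H13 RNA cannot be told apart from those of Mcts2. In all 3 genes the mutant libraries were above every wild-type library. Of the 40 tested genes of this list, 5 were higher and 4 lower without overlap. Over all tested genes, 8.45% were higher and 7.84% lower without overlap.

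Phlda2, a growth-restraining gene expressed from the maternal copy, was lower in each mutant library, at 1.44, 1.27 and 1.64 CPM in wild type against 0.881, 0.959 and 0.735 CPM in the mutant (log2 difference -0.75, SE 0.265, edgeR adjusted p = 0.365). Nespas, the antisense RNA of the Gnas locus, overlapped, at 0.424, 0.799 and 0.965 CPM in wild type against 2.9, 1.78 and 0.891 CPM in the mutant. Mutant replicate 1 was highest and mutant replicate 3 lay within the wild-type range, and the log2 difference was 1.38 (SE 0.437, adjusted p = 0.299). Nespas overlaps Gnas-locus transcripts on the other strand, and reads without strand cannot be told apart there. Ppp1r9a, a neuronal scaffold gene of the Peg10 cluster, was at 107, 111 and 82.9 CPM in wild type against 82.8, 88.3 and 80.5 CPM in the mutant (log2 difference -0.26, adjusted p = 0.405). As with Rian, wild-type replicate 3 was the lowest of its group.

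**Figure D4:**
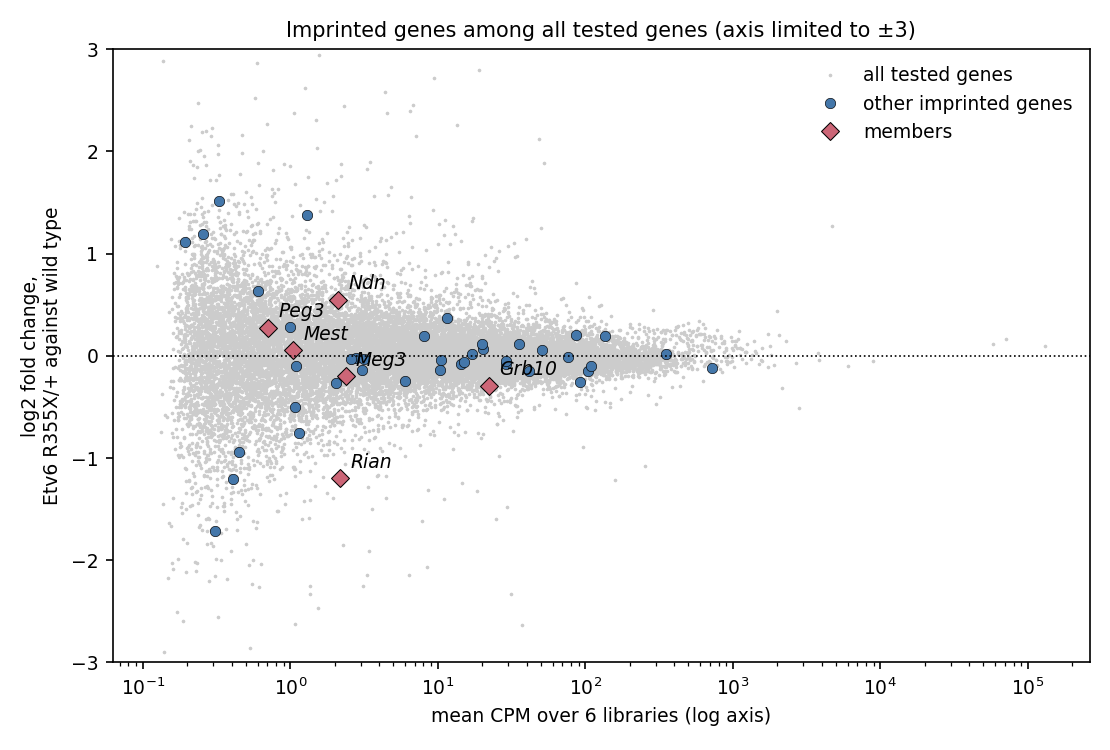
Log2 fold change of the mutant against wild type by mean CPM (log axis) for all tested genes as background points, with the 6 tested members and the other imprinted genes marked, and the vertical axis limited to 3 on either side of 0, which leaves out 20 genes. The imprinted genes lie on both sides of 0, with Rian at -1.20 and Ndn at 0.55.

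The factors that keep imprints, among them Zfp57 and Zfp445, which bind methylated control regions, their partner Trim28, and the DNA methyltransferase Dnmt1, were given as a list of 19. Of the 17 tested, 0 were called by edgeR, DESeq2 or limma-voom and 0 had an unadjusted p under 0.05, and log2 differences ran from -0.34 for Zfp57 to 0.07 for Trim28. Dppa3 and Ctcfl were listed at 0. Zfp57 measured 6.17 CPM in wild type against 4.9 CPM in the mutant on average (SE of the log2 difference 0.295, edgeR adjusted p = 0.733).

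Of 22 genes of Igf and insulin signalling, on which H19 and Grb10 are known to act, 19 were tested. The edgeR test called 0, DESeq2 0 and limma-voom 0, and 2 had an unadjusted p under 0.05, both higher in the mutant. That is 10.5% of the list, where 10.6% of all tested genes passed, so the share is that of the background. Igf1, a ligand of this pathway, measured 5.28, 3.93 and 3.69 CPM in wild type against 7.02, 7.21 and 5.26 CPM in the mutant (log2 difference 0.59, SE 0.194, adjusted p = 0.317). Foxo1, a transcription factor that the pathway keeps out of the nucleus, measured 31.6, 33.1 and 28.9 CPM in wild type against 46.2, 38 and 33.6 CPM in the mutant (log2 difference 0.33, SE 0.113, adjusted p = 0.335). The receptors differed less, with Igf1r at -0.12 (SE 0.056, adjusted p = 0.501) and Insr at 0.07 (SE 0.0653, adjusted p = 0.757) on the log2 scale.

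Several of the 9 genes are also known from stromal and other cells, so marker lists of those cells were read in the same libraries. Summed stromal markers were at 239 to 327 CPM in wild type against 234 to 261 CPM in the mutant, with 0 of 8 tested genes called by edgeR and 1 by DESeq2. Runx2 carried most of this sum, at 204 to 278 CPM per library. Pdgfrb was lower in each mutant library, at 34.5, 33.1 and 25.5 CPM in wild type against 20.2, 23.3 and 24.3 CPM in the mutant (log2 difference -0.46, edgeR adjusted p = 0.215). Within this list Cxcl12 was at 2.27 to 6.92 CPM, Pdgfra had 1 to 6 counts and Lum 0 to 2 counts per library. B cell markers were at 105 to 138 CPM in wild type against 147 to 327 CPM in the mutant. Of these, 7 of 8 were higher with an unadjusted p under 0.05, where 5.83% of all tested genes were, and 0 were called by edgeR or DESeq2. The sum was uneven in the mutant, at 327, 206 and 147 CPM in replicates 1 to 3. Erythroid markers were at 55.3 to 92.4 and 116 to 225 CPM, with 2 of 8 called higher by edgeR, the globins Hbb-bs and Hbb-bt. Macrophage markers were at 84.7 to 98.1 and 90 to 134 CPM, with 134, 97.8 and 90 CPM in mutant replicates 1 to 3. Of the 8, 5 (Adgre1, C1qa, C1qb, C1qc and Cd68) were higher with an unadjusted p under 0.05, 4 of them without overlap, and edgeR called 0 and DESeq2 3. Over all tested genes, 5.83% were higher at that p and 8.45% were higher without overlap. T and NK cell markers were at 97.7 to 127 and 112 to 150 CPM, with Klrb1c called higher by edgeR. Klrb1c was the only 1 of the 7 with an unadjusted p under 0.05. Log2 differences were above 0 for 5 of the 7 and below 0 for 2, Cd3e and Trbc2. Klrb1c lies on chromosome 6 from 128778485 to 128789215, the chromosome that holds Etv6 from 134035700 to 134270158. Whether this position bears on its level was not tested. Endothelial markers were at 125 to 136 and 129 to 141 CPM, neutrophil markers at 5440 to 8115 and 4204 to 5905 CPM, and megakaryocyte markers at 168 to 174 and 129 to 151 CPM, with 0 called by edgeR in these lists and 1 megakaryocyte marker called by DESeq2. Of the 8 endothelial markers tested, 3 (Tek, Plvap and Stab2) were higher and 1 (Emcn) lower with an unadjusted p under 0.05. Over all tested genes, 5.83% were higher and 4.8% lower at that p. Without overlap, 3 of the 8 were higher and 2 lower, against 8.45% and 7.84% of all tested genes. Fgd5, a stem cell marker, rose from 9.82 ± 1.12 to 24.5 ± 2.63 CPM (SD, n = 3 each, edgeR adjusted p = 0.00213), and was the 1 of 12 long-term stem cell markers called by edgeR (DESeq2 called 2), while Procr was at 21.9 ± 2.01 and 16.3 ± 0.796 CPM (adjusted p = 0.169). Fgd5 also lies on chromosome 6, from 91978878 to 92076004, and whether this bears on its level was not tested. No listed marker of these lists was at 0 in every library. The part of these differences in the levels of the 9 genes was not tested.

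The promoter windows of Rian and Ndn are shown because these 2 genes had the largest differences in each direction among the 6 tested, and Etv6 encodes a protein of the ETS family, whose members bind a GGAA core. Each window runs from 250 bases before to 50 bases after a RefSeq start (GRCm38.p6, plus strand for both), with each GGAA or its reverse complement TTCC in capitals. Rian spans chr12:109603695-109603994 and Ndn spans chr7:62348027-62348326. The RefSeq start used for Ndn lies downstream of the start given above, 62346569, so the Ndn window falls inside that gene span.
Rian: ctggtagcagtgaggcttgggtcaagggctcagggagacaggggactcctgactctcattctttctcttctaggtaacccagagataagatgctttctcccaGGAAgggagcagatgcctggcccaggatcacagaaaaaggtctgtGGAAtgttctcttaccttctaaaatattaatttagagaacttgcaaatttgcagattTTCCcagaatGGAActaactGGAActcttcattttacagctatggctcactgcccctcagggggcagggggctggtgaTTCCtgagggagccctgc
Ndn: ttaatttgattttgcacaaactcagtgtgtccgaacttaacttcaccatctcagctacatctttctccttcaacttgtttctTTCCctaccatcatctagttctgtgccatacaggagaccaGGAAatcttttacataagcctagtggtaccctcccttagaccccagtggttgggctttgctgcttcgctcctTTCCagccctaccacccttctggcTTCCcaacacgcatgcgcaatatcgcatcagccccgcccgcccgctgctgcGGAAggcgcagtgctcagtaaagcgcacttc
The core occurred 6 times in the Rian window and 5 times in the Ndn window. It is common, and 96.0% of 32851 RefSeq promoter windows of this length hold it on 1 strand or the other, with a median of 3. The longer form CGGAAG, which contains the core, or its reverse complement CTTCCG, occurred once in the Ndn window and in 16.9% of all windows. CCGGAAGT, or ACTTCCGG, occurred in none of the 12 windows found for 8 of the 9 genes and in 3.89% of all windows. The Rian window held 0 CpG and the Ndn window 11. These matches describe the letters of the windows and say nothing of binding.

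The pattern of each tested member over the 6 libraries was compared with other genes by Pearson's r of log2(CPM + 0.5), as a description. These points share library, depth and genotype, and with 6 points many genes follow any pattern closely: from 39 genes for Mest to 375 for Peg3 had r above 0.9 among about 12323 candidates. Within the imprinted lists, Ppp1r9a was most like Rian (0.937) and most like Meg3 (0.805), Dlk1 most like Grb10 (0.919), Cd81 most like Ndn (0.81), Nespas most like Peg3 (0.992) and Tnfrsf23 most like Mest (0.923). Among all candidates, Twnk (0.998) and Slc16a12 (0.996) were closest to Rian, Ighv6-3 (0.992) and Ghr (0.989) to Meg3, Mrgbp (0.999) and Msantd3 (0.995) to Grb10, Zfp54 (0.995) and Arsa (0.994) to Ndn, Rpl18-ps1 (0.999) and Rpl31-ps16 (0.994) to Peg3, and Baz2a (0.982) and Prmt9 (0.981) to Mest. Between the members themselves, 6 of 15 pairs had r above 0, with a median of -0.144. Rian and Grb10 had the highest, 0.716, followed by Meg3 and Grb10 at 0.635 and Meg3 and Rian at 0.594. Rian and Peg3 (-0.668) and Grb10 and Ndn (-0.641) ran opposite to each other.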

How the data were processed

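LSK libraries of 3 wild-type and 3 mutant samples were compared. Values are expected counts per gene, deposited by the authors and made with Trim Galore 0.60, STAR 2.7 and RSEM 1.31 on mm10, per the submitters' processing notes, after amplification of total RNA that marks no strand, per the labels' protocols. RSEM divides reads between overlapping or related genes. The annotation release is not given in the sources used here.

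Counts were rounded, filtered with filterByExpr and TMM-scaled, and tested with edgeR 4.0.16 (R 4.3.3) by the two-sided quasi-likelihood test over 20646 genes, with Benjamini-Hochberg adjustment at 0.05. Standard errors and 95% intervals were derived from each F statistic. DESeq2 1.42.0, limma-voom (limma 3.58.1), other filters and scalings, a replicate block, and leaving out libraries were alternatives. Positions and exon lengths are from GENCODE vM21 (mm10), matched by identifier for 55394 of 55573 genes. 92 spike-in rows, all at 0, were left out.

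The members and lists were chosen with earlier results of these data known. Named are the 9 members, Etv6, genes of the lists past adjusted p 0.05 or up to 6 with an unadjusted p under 0.05, all genes of the members' clusters, and the best correlates with a mean of at least 1 CPM. Kit, Ly6a, Hlf, Vwf, the ratios, Igf1r, Insr, Zfp57, Trim28, Pdgfra and Lum were named after their values were seen. So were Runx2, Cxcl12, Cd3e, Trbc2, Dppa3 and Ctcfl. On data simulated from this comparison (3 draws, 200 changed genes, at least 20305 genes tested), 34.7% of 1.5-fold, 62.1% of 2-fold and 87.5% of 4-fold changes were called, and 8.06% of calls were false. The changed genes were drawn from all tested genes, at any level. Apart from Grb10 the tested members lie in the lower part of these, so the shares need not hold for them. Replicates of a genotype differed beyond sampling noise. Intervals from counts of 0 cover counting error only.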

Additional observations from a re-analysis of the deposited data

How the results depend on the processing

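The direction held under all alternatives run for H19, Meg3, Rian, Mirg, Grb10, Ndn, Peg3 and Plagl1. Mest reversed to -0.25 without wild-type replicate 2 and to -0.07 without mutant replicate 2 (-0.25 to 0.25 over the left-out libraries), and Peg12 to 0.011 without wild-type replicate 1 (-0.51 to 0.011). When each library was left out, log2 differences ran from -0.39 to -0.06 for Meg3, -2.69 to -0.74 for Igf2, 0.63 to 2.59 for Ddc and 0.89 to 1.70 for Nespas. The cause was not tested. Of the members, 1 (Rian) was called with DESeq2, 1 without the filter on low counts, and 0 to 1 when each library was left out, the 1 being without wild-type replicate 3. Of the other imprinted genes, 1 (Nespas) was called without the filter. Over all genes, 55 were called, against 336 with DESeq2, 527 without the filter and 41 with limma-voom, and 16 to 67 when each library was left out, fewest without wild-type replicate 2. Dropping both mutant replicate 1 and wild-type replicate 3, chosen after seeing the data, gave 56 calls and a Rian log2 difference of -1.52 (adjusted p = 0.056). Peg3 could not be tested under the filter of 1 CPM in 3 libraries.

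Replicate numbers are shared between genotypes in the labels, but same-numbered libraries did not deviate together (correlations of -0.06, -0.22 and -0.26 over 9541 genes), and 0 of 3 correlated best with its own number. With the replicate number as a block, 32 genes were called and Rian had a log2 difference of -1.14 (adjusted p = 0.271). Depth limits H19, Mirg and Plagl1, with at most 13 counts per library.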

Other observations

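Some other imprinted genes, of the Kcnq1 cluster and Igf2r, were singled out after their values were seen. Kcnq1ot1, the long noncoding RNA of the Kcnq1 control region, was at 749 ± 17.4 CPM in wild type against 690 ± 45.0 CPM in the mutant (SD, n = 3 each), a log2 difference of -0.12 (edgeR adjusted p = 0.565). Cdkn1c, the cell cycle inhibitor p57 of the same cluster, known for holding stem cells in quiescence, measured 2.45, 3.54 and 1.83 CPM in wild type against 2.72, 2.53 and 2.41 CPM in the mutant. Its genotypes overlap, with wild-type replicate 3 again the lowest (log2 difference -0.03, SE 0.248, adjusted p = 0.986). Igf2r, the receptor that clears Igf2, was at 29.8 ± 1.82 and 28.1 ± 1.6 CPM (adjusted p = 0.779). Ascl2, a transcription factor gene of the Kcnq1 cluster, had 4, 6 and 16 counts in wild type and 49, 22 and 21 in the mutant, a log2 difference of 1.51 (SE 0.584, adjusted p = 0.406).

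Between Rian and Mirg, on the same strand, lie the transcripts Gm37899 and B830012L14Rik, also singled out after their values were seen. Gm37899 had 15, 19 and 19 counts in wild type and 32, 9 and 17 in the mutant, and B830012L14Rik had 12, 17 and 23 in wild type and 45, 5 and 11 in the mutant. Both overlap between genotypes, and both were highest in counts in the deepest library, mutant replicate 1.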
